A study of Mus musculus with 5 samples.

Results

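Immediate early genes and heat shock genes are the RNAs that a cell makes first after a stimulus or an insult, and 41 of them were followed through the 19 cell types and 5 libraries of a single-cell RNA sequencing dataset of adult mouse kidney. The set is a list of gene symbols, with no threshold on a measured value. All 41 symbols were found among the 17389 genes of the count table. They comprise 30 early response genes and 11 chaperone genes.

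Kidneys came from adult littermates on the FVB/Ant background, either wild type or knockout for *Fame*, in which CRISPR editing placed a pair of STOP codons behind the start codon. The mRNA is still made, so its level does not check the genotype. Wild type kidneys gave 2 libraries, WT female and WT mix. Knockout kidneys gave 3, which were KO female, KO male and a further one, KO mix. In both mix libraries cells of males and females were pooled. WT female, KO female and KO male carry the label run 2 in the authors' annotation and WT mix and KO mix the label run 3, so that run and the pooling of sexes cannot be told apart. Mice were perfused, and 1 kidney of each was minced and digested with collagenase P and trypsin at 37 °C before droplet capture and 3′ counting. The sources used here do not give the number of mice behind a library, and p-values therefore cover only how far libraries spread.

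Early response genes lie under promoters that already hold their transcription factors, so that kinase signals can switch them on without new protein synthesis. Their products are short-lived: FOS and JUN proteins pair into the AP-1 factor, EGR and KLF proteins bind GC-rich promoters, DUSP1, SOCS3 and NFKBIA shut the inducing pathways off, and ZFP36 promotes the decay of short-lived mRNAs. Heat shock genes are read by HSF1 when unfolded proteins accumulate. The inducible HSP70 proteins are nearly absent from resting cells, whereas HSPA8 and HSP90AB1 fold proteins in every cell and HSPE1 and HSPD1 form the folding chamber of mitochondria. Warm enzymatic digestion of a tissue is a known inducer of both groups.

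Promoter sequences of 34 of the 41 members were held in the RefSeq table of build GRCm38.p6. The stretches of 200 bases before the transcription start are printed, each read 5′ to 3′ on the gene's own strand, for 4 members that represent the main behaviours described further on. *Fos* (chr12:85473690-85473889, plus strand) stands for the AP-1 subunits, and its capitals mark TGACG, the core of a cAMP response element, and the TATAAA box. In *Dusp1* (chr17:26508473-26508672, minus strand) they mark the full palindrome TGACGTCA. In *Hspa1b* (chr17:34959239-34959438, minus strand) they mark GAANNTTC, a pair of facing heat shock units. *Hspe1* (chr1:55087948-55088147, plus strand) holds 3 overlapping matches to GAANNTTC or TTCNNGAA, printed as 1 run of capitals.
Fos: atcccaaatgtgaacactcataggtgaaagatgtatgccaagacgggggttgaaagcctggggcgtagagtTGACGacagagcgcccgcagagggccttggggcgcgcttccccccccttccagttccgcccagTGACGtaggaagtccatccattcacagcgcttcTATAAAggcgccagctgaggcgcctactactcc
Dusp1: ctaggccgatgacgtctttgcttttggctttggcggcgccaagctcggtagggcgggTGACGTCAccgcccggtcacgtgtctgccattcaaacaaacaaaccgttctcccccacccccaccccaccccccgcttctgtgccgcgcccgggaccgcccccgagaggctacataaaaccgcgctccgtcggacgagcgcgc
Hspa1b: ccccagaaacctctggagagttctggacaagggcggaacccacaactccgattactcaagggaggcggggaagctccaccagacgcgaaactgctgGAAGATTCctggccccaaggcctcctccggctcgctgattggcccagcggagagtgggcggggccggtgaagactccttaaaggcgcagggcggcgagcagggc
Hspe1: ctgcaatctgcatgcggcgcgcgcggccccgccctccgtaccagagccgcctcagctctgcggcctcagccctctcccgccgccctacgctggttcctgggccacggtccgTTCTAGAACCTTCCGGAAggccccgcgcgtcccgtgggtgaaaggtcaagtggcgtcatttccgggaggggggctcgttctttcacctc

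The heat shock letters (GAANNTTC or TTCNNGAA) occurred in 7 of the 34 members, which is 20.6%, against 10.4% of all 32851 promoters of that length. The 7 were *Dnaja1*, *Hspa1a*, *Hspa1b*, *Hspb1*, *Hspe1*, *Hsph1* and *Jun*. On either strand, TGACG was found in 12 of the 34 members (35.3%) and in 15.7% of all promoters, and TGACGTCA, which contains it, in *Btg2* and *Dusp1* and in 1.47% of all. The CCAAT box was present in 47.1% of members and 29.3% of all promoters, TATAAA in 14.7% and 9.96%, and TGANTCA in *Zfp36l1* and 5.48% of all. The serum response element was matched in *Zfp36* and in 1.18% of all promoters. *Hspe1* and *Hspd1* share this stretch: 1 annotated *Hspd1* start lies on the opposite strand 216 bases from the *Hspe1* start, and another lies 95 bases away, inside *Hspe1*.

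The table held 14197 cells and 60492486 UMIs, with 9791091 to 15950717 UMIs and 1794 to 3567 cells per library, and 25 cell barcodes occurred in 2 libraries. The median share of mitochondrial UMIs was 12.6% to 15.3% in the libraries of run 2 and 28.4% and 29.4% in those of run 3. Levels are given as UMIs per 1000000 UMIs (CPM) of a library and cell type, mitochondrial UMIs included. Since a 3′ count gives 1 tag per molecule whatever the transcript's length, CPM of different members need no correction for length. Whether the members are captured equally well was not tested. Cell types are those of the authors. In GL endo (glomerular endothelium) the 5 endothelial markers *Emcn*, *Kdr*, *Flt1*, *Plat* and *Pecam1* summed to 3971, 4228 and 3015 CPM in run 2 and 6146 and 5962 in run 3, and in LOH (loop of Henle) *Slc12a1*, *Umod* and *Egf* summed to 21553 to 30678 CPM. In PTs (proximal straight tubule) the 4 straight-segment markers summed to 106 and 87.9 CPM in WT female and KO female but to 1144 to 2148 in the other 3 libraries, while the convoluted-segment markers reached 681 and 535 CPM in the female libraries. In these 2 libraries the convoluted-segment sum thus exceeded the straight-segment sum in PTs. PTc of the same libraries held less of the straight-segment markers, at 27.8 and 21.7 CPM, and more of the convoluted-segment markers, at 2235 and 2091. The straight-segment markers were lower in WT female and KO female than in the other libraries in every main type. In PT1, for instance, they summed to 20.8 and 21.8 CPM against 341 to 682. None of these markers was at 0. Fewer cells of a subtype and less RNA per cell cannot be told apart in sums of this kind.

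In run 2, early response RNA was most abundant in vessels and collecting duct and, red blood cells apart, least abundant in the proximal tubule. The 30 early response genes together made up 7352, 6323 and 4842 CPM of GL endo in WT female, KO female and KO male, the libraries of run 2, and 23099 and 20467 CPM in WT mix and KO mix, the libraries of run 3. This order of libraries is kept in all sentences that follow. In LOH the sums were 1792, 1945 and 1595 CPM in run 2 and 4077 and 3666 in run 3. In PTs they were 787, 669 and 391 CPM in run 2 and 2176 and 1625 in run 3. Each library of run 3 thus lay above each library of run 2 in these 3 types. In PTc (proximal convoluted tubule) the sums were 633, 606 and 615 CPM in run 2 and 1390.1 and 895 in run 3, and in PT1, an unidentified proximal subcluster, 528, 539 and 359 CPM in run 2 and 733 and 819.9 in run 3. Among the 11 types with all 3 libraries of run 2, mean sums ran from 7069.9 CPM in vascular smooth muscle cells (VSMC) and 6172 in GL endo, whose ranges overlapped, through 4549.5 in collecting duct principal cells (CD PC), 3165 in intercalated and transitional cells (CD IC) and 1777 in LOH to 475 in PT1 and 318 in red blood cells. LOH and the distal convoluted tubule (DCT) overlapped, as did PT2, PTc, PTs and PT1 each with its neighbour.

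**Figure D1:**
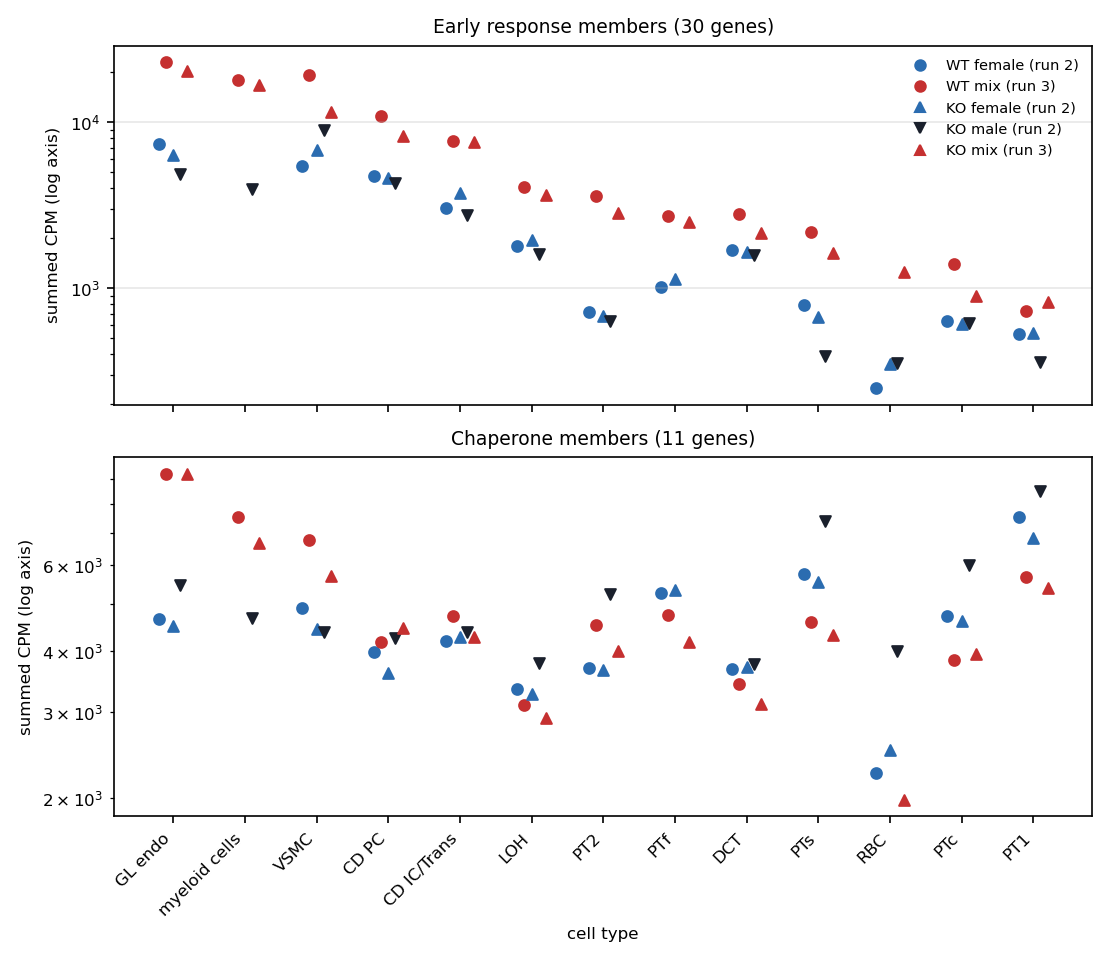
Summed levels of the 30 early response members (upper panel) and the 11 chaperone members (lower panel) by cell type, in CPM on a log axis, with 1 symbol per library (circles wild type, triangles knockout with the point down for KO male, blue or black run 2, red run 3). Cell types with at least 3 libraries are drawn, and in each the red symbols of the early response sum lie above all others.

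The split by run was present in all 14 cell types that kept libraries of both runs, with a ratio of mean sums from 1.49 in DCT to 4.76 in PT2. Fibroblasts kept only WT female (22 cells) and KO mix (21 cells), so the runs could not overlap there. Myeloid cells kept only KO male (20 cells) of run 2, and red blood cells only KO mix (41 cells) of run 3. The counts of types given here include these and were not set against sums of other genes. The AP-1 subunits separated in 14 of the 14 types (ratio 2.27 to 10.5) and the inducible chaperones in 12 (1.33 to 6.28). The mitochondrial chaperonins separated the other way in 14 of the 14 (0.231 to 0.602). For the constitutive cytosolic chaperones run 3 was above in 4 types and below in 1. For all chaperones summed, run 3 was above in 3 types and below in 8, PTs, PTc, PT1 and LOH among the latter. These CPM include mitochondrial UMIs, whose share was higher in run 3. Per non-mitochondrial UMI, in cells with at most 25% mitochondrial UMIs, the chaperone sums overlapped between runs in PTs (6892, 6699 and 8716 CPM in run 2, 7531 and 6739 in run 3), in PTc (6087, 6105 and 8196, then 6430 and 6600.2) and in LOH (3977, 3882 and 4768, then 4561 and 5160.5), and run 3 was lower in PT1 (8438, 7653 and 9649, then 6865 and 7041). Libraries of run 3 alone also held enough cells of the long descending limb in juxtamedullary nephrons (Juxt ldl LOH), where the early response sum was 23671 and 20166 CPM in WT mix and KO mix, and of putative glomerular stem cells (GL sc), where it was 18153 and 12373 CPM.

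Abundant members differed in how much their level depended on the cell type. *Hspa8*, the constitutive HSP70, ranged over the types with at least 3 libraries from 566 ± 116 CPM (SD, n = 4) in red blood cells to 1451 ± 206 CPM (SD, n = 3) in myeloid cells, the type with the highest mean. *Hsp90ab1*, the constitutive HSP90, ranged from 487 ± 137 CPM (SD, n = 4) in red blood cells to 1448 ± 333 CPM (SD, n = 5) in GL endo. *Hspe1*, the cap of the mitochondrial chaperonin, ranged from 426 ± 186 CPM (SD, n = 5) in CD PC to 2271 ± 1152 CPM (SD, n = 5) in PT1. The 2 AP-1 members that led in GL endo spanned far more. *Jun* ranged from 32.3 ± 25.7 CPM (SD, n = 5) in PT1 to 1413 ± 1323 CPM (SD, n = 5) in GL endo. *Fos* ranged from 19.3 ± 12.1 CPM (SD, n = 5) in PT1 to 2628 ± 1254 CPM (SD, n = 5) in VSMC. For *Jun* and *Fos* these SDs span the gap between the runs, which is given by library further on.

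*Hspa8*, *Hsp90ab1* and *Hspe1* were the 3 members with the highest mean level in PTs, PTc, PT1 and LOH. The *Hspa8* level was 1099, 1117 and 1246 CPM in run 2 and 1143 and 1157 in run 3 in PTs. In PTc it was 981, 1139 and 1386 CPM in run 2 and 1201 and 1291 in run 3. In PT1 it was 1118, 1141 and 1472 CPM in run 2 and 1436 and 1460.2 in run 3. In these proximal types the runs overlapped, with KO male above the other libraries of run 2. In LOH the *Hspa8* level was 611, 599.8 and 758 CPM in run 2 and 625 and 617 in run 3. The *Hsp90ab1* level was 827, 812 and 1323 CPM in run 2 and 957 and 830.5 in run 3 in PTs. In PTc it was 645, 649 and 898 CPM in run 2 and 644 and 639 in run 3. The runs overlapped for *Hsp90ab1* in both types. In PT1 it was 994, 862 and 1394 CPM in run 2 and 1277 and 1160.0 in run 3. In LOH it was 968, 942 and 971 CPM in run 2 and 909 and 787 in run 3. In GL endo it was 1188, 1091 and 1369.8 CPM in run 2 and 1798 and 1792 in run 3. In LOH both libraries of run 3 were below all of run 2, in GL endo both were above, and in PT1 the runs overlapped.

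The comparison of run 3 with run 2, fitted with genotype as a term, asks how far the members differ between the 2 sets of libraries. A member was called at an edgeR adjusted p under 0.05 over all genes tested in the type. GL endo showed the most calls: 33 of 39 tested members passed, 31 higher and 2 lower in run 3, where 26.8% of all genes tested passed in either direction. In LOH 26 of 39 passed (24 higher, 2 lower) against 24.1% of all genes. In PTs 9 of 38 passed, all higher, against 0.648%. In PTc 5 of 31 passed (4 higher, 1 lower) against 8.12%, or 3.18% lower, and in PT1 6 of 24 passed (5 higher, 1 lower) against 15.9%, or 7.86% lower. The share of members called in PT1 was 25%.

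Members that failed the filter on low counts were not tested. They were *Gadd45a* and *Myc* in GL endo, *Fosl2* and *Myc* in LOH, and *Gadd45b*, *Nr4a1* and *Socs3* in PTs, along with 10 members in PTc and 17 in PT1, which include *Klf2*, *Klf4* and *Hspb1* in both. The median log2 fold change of tested members was 1.06 in GL endo, 1.36 in LOH, 1.40 in PTs, 0.86 in PTc and 0.30 in PT1, and over all genes tested it lay between −0.02 and 0.02. Some members passed the filter through run 3, such as *Fosb* in PTc, with 0, 9 and 7 UMIs in run 2. With at least 20 counts in every library the medians of members were 1.36, 1.18, 0.77, 0.26 and 0.15 in the same order of types. Members whose libraries of run 3 all lay above those of run 2 numbered 35 of 39 in GL endo (39.1% of all genes), 28 of 39 in LOH (19.3%), 23 of 38 in PTs (15.5%), 13 of 31 in PTc (13.9%) and 9 of 24 in PT1 (25.8%).

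**Figure D2:**
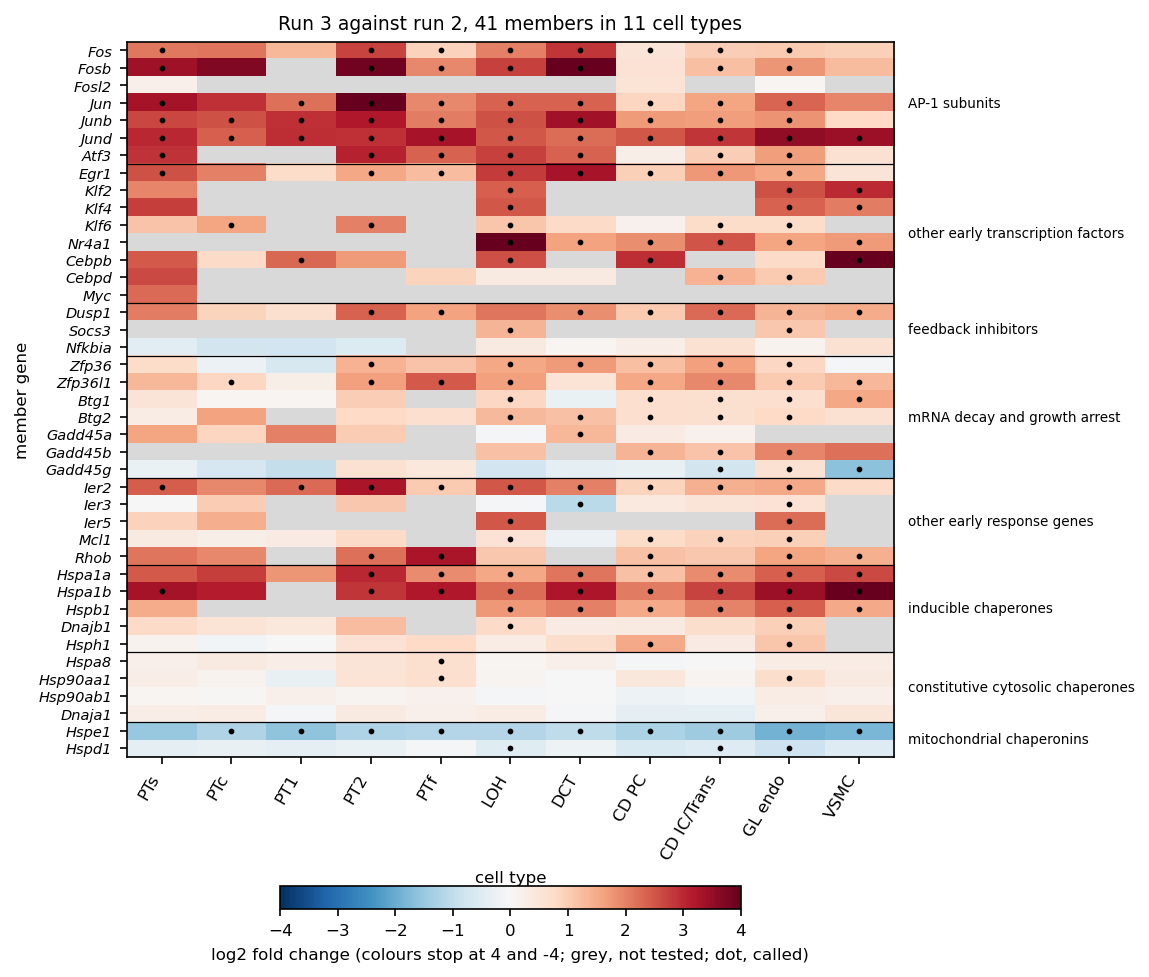
Heat map of the log2 fold change of run 3 against run 2 for the 41 members (rows, ordered by role) in the 11 cell types tested (columns), with red for positive and blue for negative values, dots for calls and grey where a member was not tested. *Jun*, *Junb*, *Jund*, *Fos*, *Hspa1a* and *Hspa1b* are positive wherever they were tested, and *Hspe1* is negative in every type.

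In GL endo 6 of the 7 AP-1 subunits were called higher, with *Fosl2* the exception (log2 fold change 0.08). *Jund*, a *Jun* family member with growth-restraining activity, was at 122, 114 and 86.6 CPM in run 2 and 1878 and 1309 in run 3 (log2 fold change 3.55, standard error 0.18, edgeR adjusted p = 4.5e-08). Both values of run 3 were more than any in run 2. *Jun*, the founding member, was at 496, 548 and 335 CPM in run 2 and 3123 and 2566 in run 3 (log2 fold change 2.33, standard error 0.19, edgeR adjusted p = 3.73e-06). *Junb*, a *Jun* family member, was at 325, 289 and 346 CPM in run 2 and 1418 and 1254 in run 3 (log2 fold change 1.79, standard error 0.17, edgeR adjusted p = 1.54e-05). The runs did not overlap for either. *Fos*, the partner of *Jun* in AP-1, was at 905, 854 and 669 CPM in run 2 and 2153 and 1945 in run 3 (log2 fold change 1.05, standard error 0.16, edgeR adjusted p = 0.000373). *Fosb* rose by 1.76 and *Atf3*, a stress-induced member of the same protein class, by 1.69 on the log2 scale. In this cell type the *Jund* difference was the largest of the 39 tested members, and that of *Fos* lay near their median of 1.06.

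Of the other transcription factors, 6 of the 7 tested were called higher in GL endo. *Klf4*, a zinc finger factor of quiescent endothelium, was at 233, 177 and 165 CPM in run 2 and 1299 and 1115 in run 3 (log2 fold change 2.35, standard error 0.17, edgeR adjusted p = 1.33e-06). *Klf2*, its flow-induced relative, was at 371, 402 and 209 CPM in run 2 and 2320.0 and 2324 in run 3 (log2 fold change 2.55, standard error 0.21, edgeR adjusted p = 1.32e-05). Neither overlapped between runs. *Egr1* (log2 fold change 1.56), the nuclear receptor *Nr4a1* (1.57), *Cebpd* (1.06) and *Klf6* (0.74) were called with smaller differences. *Cebpb* had a log2 fold change of 0.77 with adjusted p = 0.34 by edgeR.

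Genes that limit the response were higher as well. Among the feedback inhibitors *Dusp1*, a phosphatase of MAP kinases, was called with a log2 fold change of 1.37 and *Socs3*, an inhibitor of cytokine signalling, with 1.07, whereas *Nfkbia*, the inhibitor of NF-kappaB, had 0.14 and did not pass. All 6 tested genes of mRNA decay and growth arrest were called higher, from 0.61 for *Gadd45g* to 1.96 for *Gadd45b*. All 5 of the remaining early response genes were called higher, from 0.57 for *Ier3* to 2.24 for *Ier5*. *Rhob*, a small GTPase of the endosome, was at 291, 232 and 213 CPM in run 2 and 944 and 863 in run 3 (log2 fold change 1.59, standard error 0.17, edgeR adjusted p = 2.87e-05). Its runs did not overlap.

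The 5 inducible chaperones were all called higher in GL endo. *Hspa1b*, an inducible HSP70, was at 57.8, 59.1 and 35.4 CPM in run 2 and 703 and 655 in run 3 (log2 fold change 3.42, standard error 0.21, edgeR adjusted p = 5.13e-07). *Hspa1a*, its neighbour on chromosome 17, was at 217, 234 and 232 CPM in run 2 and 1539 and 1329 in run 3 (log2 fold change 2.39, standard error 0.17, edgeR adjusted p = 1.33e-06). *Hspb1*, a small heat shock protein, was at 357, 229 and 244 CPM in run 2 and 1778 and 1772 in run 3 (log2 fold change 2.40, standard error 0.17, edgeR adjusted p = 1.33e-06). The runs did not overlap for any of these. *Hsph1* and *Dnajb1*, partners of HSP70, rose by 1.12 and 0.96 on the log2 scale. Coding regions of *Hspa1a* and *Hspa1b* were 99.4% identical but the last 500 bases of their transcripts, the part a 3′ library reads, only 49.6%.

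Constitutive chaperones differed less, and the mitochondrial pair went the other way. Of the 4 constitutive cytosolic members *Hsp90aa1* was called (log2 fold change 0.69), while *Hspa8* (0.30), *Hsp90ab1* (0.31) and *Dnaja1* (0.19) were not. *Hspe1* was at 632, 779 and 964 CPM in run 2 and 224 and 257 in run 3 (log2 fold change −1.90, standard error 0.20, edgeR adjusted p = 2.66e-05). Every value of run 3 was lower than every value of run 2. *Hspd1*, which builds the barrel that HSPE1 closes, fell by 0.81 on the log2 scale. The annotation names 6 pseudogenes of *Hspe1* and 5 of *Hspd1*, so some of their reads may have been split between copies. Cell type markers moved with run in GL endo. The 5 endothelial markers were higher in run 3, as given above. The 4 myeloid markers summed to 51.8, 449.8 and 311 CPM in run 2 and 606 and 476 in run 3, and none of the 4 was at 0. The 3 podocyte markers summed to 367, 420.3 and 339 CPM in run 2 and 602 and 491 in run 3. The part of these markers in the result was not tested. Haemoglobin RNA summed to 32054 to 67736 CPM in GL endo of run 2 and to 1514 and 2027 CPM in run 3. Leaving out haemoglobin and mitochondrial genes left 33 members called in GL endo and 26, 9, 5 and 6 in LOH, PTs, PTc and PT1. Without KO mix the fit had no replicate in run 3, and the median log2 fold change of members in GL endo was 0.99.

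**Figure D3:**
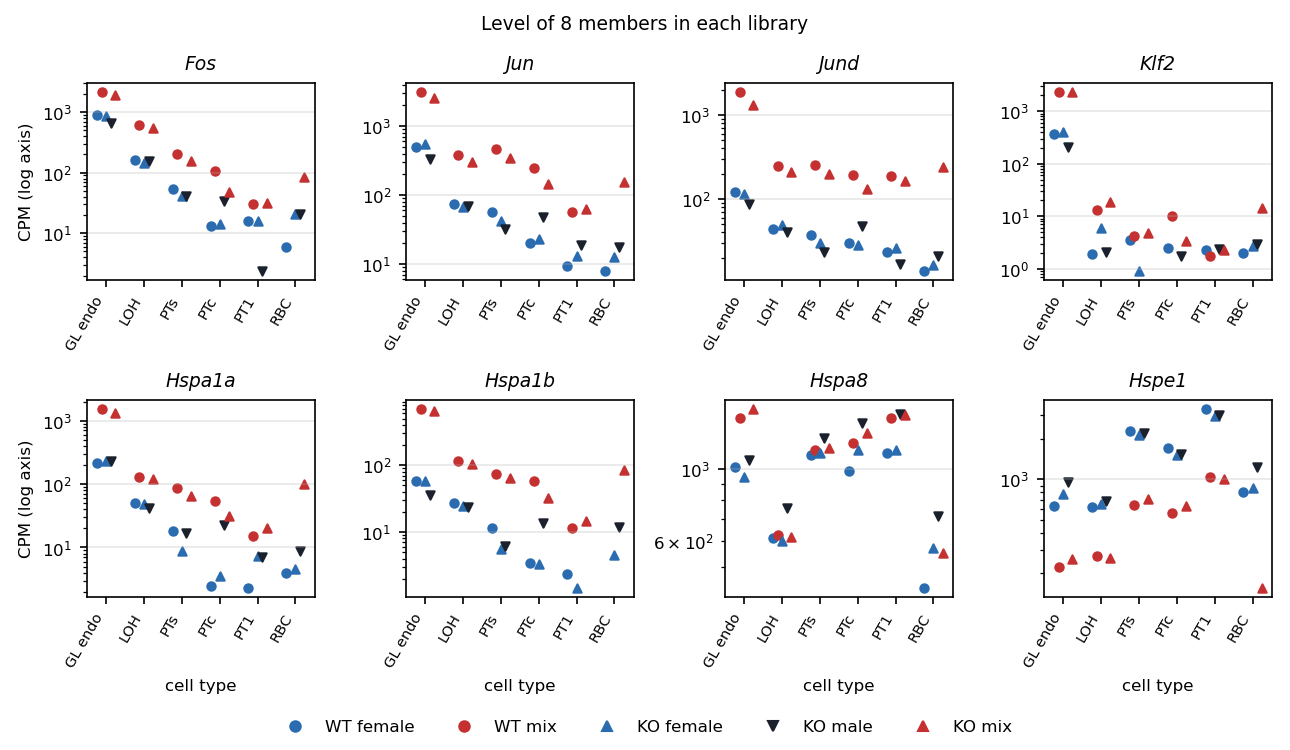
Level of 8 members in the 5 main cell types and in red blood cells (RBC), with 1 symbol per library, in CPM on a log axis and with values of 0 not drawn (circles wild type, triangles knockout with the point down for KO male, blue or black run 2, red run 3). Red symbols lie above the others for *Fos*, *Jun* and *Jund* in GL endo, LOH and PTs, overlap them for *Hspa8* in PTs and LOH, and lie below them for *Hspe1*.

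In LOH all 6 tested AP-1 subunits were called higher in run 3. *Fos* was at 164, 144 and 158 CPM in run 2 and 607 and 543 in run 3 (log2 fold change 2.01, standard error 0.11, edgeR adjusted p = 3.4e-13), the lowest adjusted p of any member there. *Junb* was at 50.4, 49.1 and 43.2 CPM in run 2 and 282 and 237 in run 3 (log2 fold change 2.55, standard error 0.14, edgeR adjusted p = 5.6e-13). *Jun* was at 73.7, 67.9 and 70.1 CPM in run 2 and 383 and 299 in run 3 (log2 fold change 2.37, standard error 0.13, edgeR adjusted p = 5.6e-13). The libraries of a run lay close together for these 3 genes, and the runs did not overlap. *Jund* was at 44.1, 49.1 and 40.4 CPM in run 2 and 249.9 and 211 in run 3 (log2 fold change 2.48, standard error 0.15, edgeR adjusted p = 2.26e-12). *Fosb* was at 18.3, 16.4 and 12 CPM in run 2 and 92.5 and 97.5 in run 3 (log2 fold change 2.74, standard error 0.21, edgeR adjusted p = 1.26e-10). *Atf3* was at 27.7, 19.4 and 20.5 CPM in run 2 and 149 and 132 in run 3 (log2 fold change 2.74, standard error 0.18, edgeR adjusted p = 7.76e-12). Again no value of run 2 reached those of run 3.

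Other factors of LOH followed. *Egr1*, an early zinc finger factor, was at 25.8, 31.5 and 33.3 CPM in run 2 and 226 and 168 in run 3 (log2 fold change 2.80, standard error 0.18, edgeR adjusted p = 3.28e-12). *Nr4a1* was at 0.630, 2.42 and 3.54 CPM in run 2 and 30.8 and 36.6 in run 3 (log2 fold change 4.11, standard error 0.41, edgeR adjusted p = 1.61e-08). The runs did not overlap for either, and the *Nr4a1* difference rests on levels under 4 CPM in run 2. *Ier2* was at 15.1, 27.9 and 18.4 CPM in run 2 and 109 and 99.3 in run 3 (log2 fold change 2.49, standard error 0.21, edgeR adjusted p = 9.88e-10). *Zfp36l1*, which promotes decay of AU-rich mRNAs, was at 90.1, 79.4 and 80.0 CPM in run 2 and 203 and 266 in run 3 (log2 fold change 1.66, standard error 0.14, edgeR adjusted p = 9.88e-10). *Hspa1b* was at 27.1, 24.2 and 23.4 CPM in run 2 and 115 and 103 in run 3 (log2 fold change 2.24, standard error 0.18, edgeR adjusted p = 3.94e-10). The same separation was seen in all 3. *Hspe1*, at 624, 657 and 694 CPM in run 2 and 269 and 259 in run 3, fell by 1.17 and *Hspd1* by 0.49 on the log2 scale. By role, 6 of 7 tested other transcription factors, 3 of 5 other early response genes, 4 of 7 genes of mRNA decay and growth arrest, 1 of 3 feedback inhibitors, 4 of 5 inducible and 0 of 4 constitutive chaperones were called higher. *Dusp1* had a log2 fold change of 2.14 but an edgeR adjusted p of 0.177.

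In PTs the 9 called members were 6 AP-1 subunits with *Egr1*, *Ier2* and *Hspa1b*. *Jun* was at 56.9, 41.6 and 32.5 CPM in run 2 and 468 and 343 in run 3 (log2 fold change 3.33, standard error 0.18, edgeR adjusted p = 0.0331). *Jund* was at 37.4, 29.8 and 23.7 CPM in run 2 and 252 and 198 in run 3 (log2 fold change 3.03, standard error 0.17, edgeR adjusted p = 0.0331). *Junb* was at 11.9, 9.44 and 7.73 CPM in run 2 and 64.3 and 49.4 in run 3 (log2 fold change 2.67, standard error 0.19, edgeR adjusted p = 0.0331). For all 3 the lowest library of run 3 was several times the highest of run 2. *Hspa1b* was at 11.3, 5.63 and 6.14 CPM in run 2 and 75.0 and 65.3 in run 3 (log2 fold change 3.34, standard error 0.25, edgeR adjusted p = 0.0339). *Fos* was at 53.5, 41.6 and 41.2 CPM in run 2 and 199.7 and 155 in run 3 (log2 fold change 2.09, standard error 0.17, edgeR adjusted p = 0.0422). *Ier2* was at 13.8, 14.2 and 12.7 CPM in run 2 and 73.5 and 57.7 in run 3 (log2 fold change 2.43, standard error 0.21, edgeR adjusted p = 0.0426). Runs did not overlap here either. *Fosb* was at 16.3, 12.7 and 6.14 CPM in run 2 and 132 and 93.7 in run 3 (log2 fold change 3.39, standard error 0.29, edgeR adjusted p = 0.0426). *Atf3* was at 3.35, 2.18 and 2.05 CPM in run 2 and 19.7 and 15.1 in run 3 (log2 fold change 2.9, standard error 0.26, edgeR adjusted p = 0.0426). *Egr1* was at 21.3, 20.3 and 11.1 CPM in run 2 and 106 and 81.3 in run 3 (log2 fold change 2.55, standard error 0.25, edgeR adjusted p = 0.0449). All 3 again separated by run.

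*Hspe1* in PTs was at 2289.9, 2152 and 2233 CPM in run 2 and 649 and 719 in run 3, a difference of −1.51 that did not pass (edgeR adjusted p = 0.0522). The count in PTs changed with the library left out: it was 0 without WT female or without KO female, and 26 without KO male. These counts have no share over all genes beside them, and nothing is read from them about the members. Without WT mix or KO mix the fit had no replicate in run 3, and the median log2 fold change was 1.39 or 1.07. WT female and KO female are also the libraries whose straight-segment markers were low in PTs, and the part of this in the counts was not tested.

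In PTc and PT1 few members were called. In PTc *Klf6*, a zinc finger factor of injured epithelium, was at 17.5, 20.5 and 20.7 CPM in run 2 and 52.9 and 48.1 in run 3 (log2 fold change 1.58, standard error 0.19, edgeR adjusted p = 0.00253). *Jund* was at 30.2, 28.2 and 47.4 CPM in run 2 and 191 and 130.3 in run 3 (log2 fold change 2.40, standard error 0.27, edgeR adjusted p = 0.00313). *Hspe1* was at 1727, 1519 and 1546 CPM in run 2 and 559 and 636 in run 3 (log2 fold change −1.20, standard error 0.18, edgeR adjusted p = 0.00673). The runs did not overlap, *Hspe1* being lower in run 3. *Junb* was at 3.90, 4.46 and 11.2 CPM in run 2 and 33.9 and 25 in run 3 (log2 fold change 2.55, standard error 0.40, edgeR adjusted p = 0.0104). *Zfp36l1* was at 79.4, 71.6 and 76.7 CPM in run 2 and 134 and 106 in run 3 (log2 fold change 0.83, standard error 0.17, edgeR adjusted p = 0.0197). KO male lay above the other libraries of run 2 for *Junb*. *Jun* was at 20.5, 23.2 and 48.3 CPM in run 2 and 247 and 143 in run 3 and did not pass (adjusted p = 0.0699 by edgeR). The count in PTc was 0 without WT female, 2 without KO female and 23 without KO male. These counts have no share over all genes beside them.

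In PT1 *Jund* was at 23.1, 26.2 and 16.6 CPM in run 2 and 189.6 and 163 in run 3 (log2 fold change 2.96, standard error 0.26, edgeR adjusted p = 0.000932). *Hspe1* was at 3364, 2947 and 2999 CPM in run 2 and 1035 and 1008 in run 3 (log2 fold change −1.60, standard error 0.15, edgeR adjusted p = 0.000932). *Junb* was at 4.61, 4.36 and 4.75 CPM in run 2 and 31.9 and 36.4 in run 3 (log2 fold change 2.91, standard error 0.45, edgeR adjusted p = 0.00557). These 3 separated by run, *Hspe1* again downward. *Jun* was at 9.22, 13.1 and 19.0 CPM in run 2 and 57.6 and 62.5 in run 3 (log2 fold change 2.21, standard error 0.35, edgeR adjusted p = 0.00631). *Cebpb*, a factor of the acute phase, was at 6.92, 10.2 and 4.75 CPM in run 2 and 51.4 and 30.7 in run 3 (log2 fold change 2.29, standard error 0.43, edgeR adjusted p = 0.0115). *Ier2* was at 4.61, 5.82 and 7.12 CPM in run 2 and 22.2 and 30.7 in run 3 (log2 fold change 2.26, standard error 0.46, edgeR adjusted p = 0.0157). The runs did not overlap for these either, and none but *Hspe1* exceeded 189.6 CPM in a library. The levels of run 2 rest on few UMIs: 2, 3 and 2 for *Junb*, 2, 4 and 3 for *Ier2*, 3, 7 and 2 for *Cebpb* and 4, 9 and 8 for *Jun*. These 4 members passed the filter on low counts through run 3, so the size of their differences is uncertain. With at least 20 counts in every library, 1 member was called in PT1. The count in PT1 was 0 without KO female and 14 without KO male, again with no share over all genes beside it.

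The 6 other types tested gave 16 of 31 members called in PT2 (15 higher and 1 lower), against 3.69% of all genes, or 2.26% higher and 1.43% lower. In DCT 18 of 32 passed (16 higher), against 16.8% of all genes, or 8.02% higher. In CD PC 21 of 35 passed (20 higher), against 22.9%, or 10.2% higher. In CD IC 24 of 34 passed (21 higher), against 24.4%, or 10.7% higher. In PTf, named female-specific cells by the authors, 16 of 24 passed (15 higher), against 22.6%, or 11.3% higher. WT female and KO female held 23 and 25 PTf cells, and WT mix and KO mix held 66 and 152. KO male held 9 PTf cells and was left out there. In VSMC 14 of 30 passed (12 higher), against 14.2%, or 6.95% higher. Across the 11 types *Jund* was called higher in 11 (log2 fold change 2.24 to 3.55), *Junb* in 10 of 11 and *Hspa1b* in 9 of 10 (2.08 to 4.48). *Jun* was called in 9 of 11 and *Fos* in 8 of 11, from 0.52 in CD PC to 2.86 in DCT. *Hspe1* was called lower in 10 of 11 (−1.90 to −1.0, PTs included in the range) and *Hspd1* in 3 of 11. *Hsp90ab1*, *Dnaja1* and *Nfkbia* were called in none of the 11, 11 and 10 types where they were tested. Directions were mixed for *Gadd45g*, a stress sensor of the GADD45 family, called higher in GL endo (0.61) and lower in CD IC (−0.74) and VSMC (−1.65). *Ier3* was called higher in GL endo and lower in DCT (−1.07).

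Shares of cells gave the same separation at equal depth. After thinning each cell to 1000 UMIs, *Fos* was detected in 23.3%, 25.8% and 22.3% of GL endo cells in the 3 libraries of run 2 and in 56.5% and 57.4% of those in run 3. The 95% exact binomial intervals of the lowest run 3 share (50.4% to 62.5%) and the highest run 2 share (18.5% to 34.3%) did not meet, and such intervals cover counting error only. *Jun* was detected in 30.1%, 30.5% and 27.7% of cells of run 2 and 82.6% and 74.0% of run 3. *Hspa1b* was detected in 6.16%, 4.69% and 4.26% and in 44.2% and 37.5%. In LOH the *Fos* shares were 11.6%, 12.3% and 11% in run 2 and 33.0% and 35.1% in run 3. In PTs they were 4.36%, 3.03% and 2.53% against 14.9% and 13.4%. Each of these genes was thus more often detected in both libraries of run 3 than in any of run 2. Without thinning, the mean *Fos* share over the libraries in LOH was 37.5%, against 20.6% with it. In red blood cells, which should make no such RNA, *Fos* was found in 0.855%, 1.17% and 1.88% of cells of run 2 and in 2 of the 41 cells of KO mix (4.88%). Haemoglobin took up part of the UMIs drawn from these cells, so their shares are low estimates for free RNA. Red blood cells of run 2 had medians of 1679 to 2119 UMIs, those of KO mix 1356, and GL endo cells 1532 to 1889.5.

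**Figure D4:**
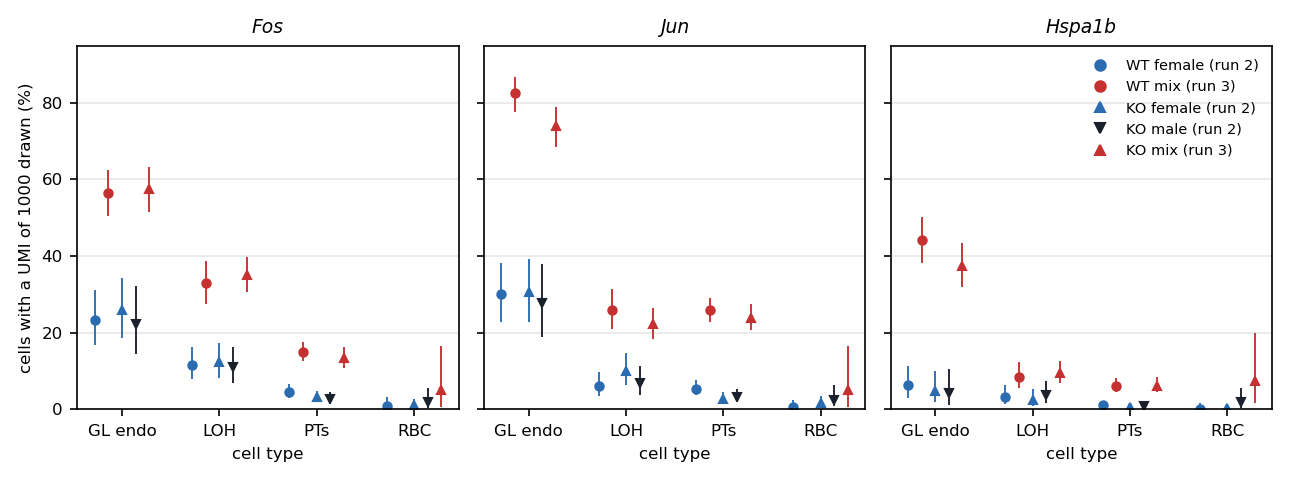
Share of cells with at least 1 UMI of *Fos*, *Jun* or *Hspa1b* after thinning to 1000 UMIs, in GL endo, LOH, PTs and red blood cells (RBC) by library, in percent, with 95% exact binomial intervals as bars (circles wild type, triangles knockout, blue or black run 2, red run 3). Shares in GL endo reach 82.6% for *Jun* in WT mix, and those in red blood cells stay at or below 7.32%.

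Within GL endo the difference was spread over the cells. The median cell carried 4, 3 and 2 early response UMIs per 1000 in WT female, KO female and KO male and 18 and 16.5 in WT mix and KO mix. The share of cells with none was 6.16%, 10.2% and 21.3% in run 2 and 0.362% and 1.35% in run 3. *Fos* and *Jun* were found in the same cells: *Jun* was detected in 61.8%, 66.7% and 47.6% of *Fos*-positive GL endo cells of run 2 and in 92.9% and 92.4% of those of run 3. Among *Fos*-negative cells the shares were 20.5%, 17.9% and 21.9% and then 69.2% and 49.2%. *Hspa1a* was likewise more frequent among *Fos*-positive cells in all 5 libraries (28.6% to 75.6%) than among *Fos*-negative ones (7.37% to 41.7%), compared within a library. In 4 of the 5 libraries *Hspe1* was less frequent among the *Fos*-positive cells, KO mix being the exception (22.9% against 21.4%).

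Red blood cells, which carry no nucleus, served as a measure of free RNA. In the 41 red blood cells of KO mix the early response genes summed to 1257 CPM, with 240 CPM of *Jund* (17 UMIs), against 895 CPM in PTc and 819.9 CPM in PT1 of that library. In run 2 the red blood cell sum was 249.7 to 354 CPM. Haemoglobin RNA took up 531140, 484600 and 313759 CPM of red blood cells in run 2 and 385989 CPM in KO mix. The CPM of all other genes are lower there for that reason, so these red blood cell values are low estimates for free RNA. WT mix had 11 red blood cells and gave no value. Of the 41 members 23 in PTc, 20 in PT1, 17 in PTs, 7 in LOH and 1 in GL endo were at or below their red blood cell level in KO mix. The *Jund* level in these red blood cells was also above those of LOH and PTs in KO mix given earlier. *Junb* (7 UMIs) and *Hspa1b* (6 UMIs) in them were likewise above their levels in PTs of KO mix. The part of free RNA in the results was not tested in any cell type.

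The mitochondrial share moved with run as well. Among cells with at most 25% mitochondrial UMIs, early response genes made up 8460, 6988 and 5667 CPM of non-mitochondrial UMIs of GL endo in run 2 and 28031 and 25243 in run 3. In LOH they made up 2162, 2304 and 2131 against 8873 (32 cells) and 8261 (55 cells), and in PTs 942, 809.8 and 458 against 5595 and 3693. The runs did not overlap in any of these 3 types. In run 3 the cells above 25% carried less early response RNA in PTs, at 1989 and 1849.7 CPM, and in GL endo, at 18652 and 17759, and the same order held in PTc and LOH. In PT1 it held in WT mix, with 881 CPM in the cells at or below 25% and 853 in those above. In KO mix the order was reversed there, at 986 and 1094.

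GC content was the other feature that moved with run. Across genes the log2 fold change of run 3 against run 2 had a Spearman correlation with transcript GC content of 0.22 in PTs to 0.27 in LOH, given as a description over 5611 to 10261 genes that share the same 5 libraries. The median member had 54.1% GC in GL endo and LOH against 49.3% and 49.7% of all genes tested. With offsets that removed the trend, 30 members were called in GL endo (25.9% of all genes), 27 in LOH (23.3%), 5 in PTc (6.31%), 4 in PT1 (14%) and 0 in PTs (0%), where the lowest adjusted p became 0.0505, shared by *Atf3*, *Fos*, *Fosb*, *Hspa1b*, *Jun*, *Junb* and *Jund*. The median log2 fold change of members in PTs was 1.32 with the offsets and 1.40 without, that of *Jun* 3.19 and 3.33, that of *Fos* 2.11 and 2.09 and that of *Fosb* 3.25 and 3.39. In GL endo the log2 fold change of *Jund* went from 3.55 to 2.79, of *Junb* from 1.79 to 1.0 and of *Hspb1* from 2.40 to 1.62. *Fos*, with 51.9% GC, stayed at 1.05. *Gadd45g* turned from 0.61 to −0.16.

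**Figure D5:**
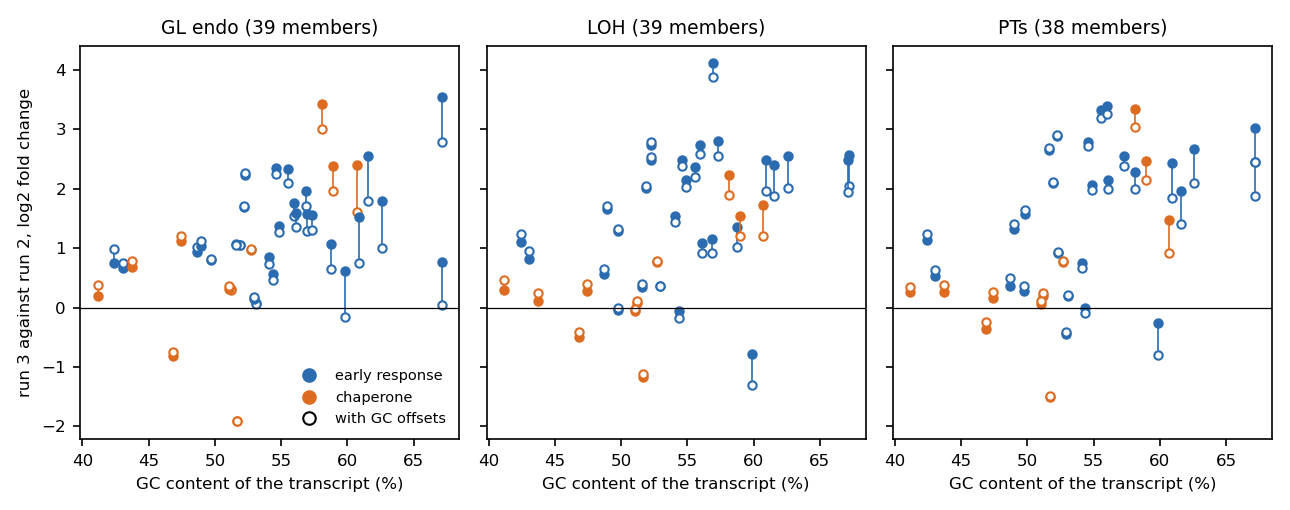
Log2 fold change of run 3 against run 2 (vertical axis) against the GC content of the transcript in percent (horizontal axis) for the tested members in GL endo, LOH and PTs (blue early response, orange chaperone), as fitted (filled) and with GC offsets (open), joined by a line. In GL endo the filled point of *Jund*, at 67.1% GC, lies at 3.55 and its open point at 2.79, while *Hspe1*, at 51.7% GC, lies at −1.90.

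Whether the run difference itself varied between cell types was tested with an interaction term and the library as a block. Between GL endo and PTs 5 of 41 members passed, against 2.24% of 11307 genes. For 4 of them the increase was smaller in GL endo: *Fosb* (log2 difference −1.50, standard error 0.28, edgeR adjusted p = 0.000505), *Fos* (−0.97, 0.25, 0.0171), *Jun* (−0.91, 0.25, 0.0278) and *Egr1* (−0.89, 0.26, 0.0407). The remaining one, *Myc* (−5.50, 1.55, 0.0357), had failed the filter on low counts in GL endo, held 9 UMIs there in all and entered this fit through its counts in PTs, so that nothing is read from its value. Between LOH and PTs 0 of 41 passed by edgeR, against 0.48% of 10835 genes, with 11 at an unadjusted p under 0.05.

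The comparison of knockout with wild type asks whether loss of *Fame* changed these genes. In none of the 11 types was a member called by edgeR, where 0% of all genes passed, nor in any of the 5 main types by DESeq2, limma-voom or edgeR with run as a block. At an unadjusted p under 0.05 the edgeR count was 1 in PTc and 0 in each of the other 10 types. Over all genes, 12 of 10342 reached this level in PTs, 38 of 9099 in PTc, 59 of 8952 in LOH and 21 of 7043 in GL endo. Differences between runs count as spread in that fit, which has no term for run, so these counts say little of the members. With the sex label as a block the count of members was 13 in PTc, 8 in PTs, 5 in GL endo, 2 in PT1 and 0 in LOH, and with run as a block 6 in GL endo, 2 in PTc, 1 in PTs and 0 in PT1 and LOH, along with 7 in CD IC and 4 in DCT. The counts with a block have no share over all genes beside them, and nothing is read from them. Median log2 fold changes of tested members were −0.64 in PTs, −0.34 in PTc, 0.06 in PT1, −0.22 in LOH and −0.38 in GL endo. Without WT mix they became 0.53, 0.53, 0.22, 0.51 and 0.31. With run as a block they were −0.36, −0.03, 0.09, −0.05 and −0.11. The summed AP-1 subunits show the pattern: they made up 184 and 1139.9 CPM of PTs in WT female and WT mix and 141, 115 and 857 CPM in KO female, KO male and KO mix. The ranges of the genotypes overlapped, with KO female below WT female and KO mix below WT mix. With the sex label as a block, 2 members were called lower in the knockout in PTc, *Fos* (log2 fold change −0.77, edgeR adjusted p = 0.0164) and *Fosb* (−1.12, 0.0461), where 0.364% of 9610 genes passed, and 0 members were called in the other main types. KO male has no partner of its sex label in that fit, so the estimate comes from the female and the mixed pair. *Fosb* was counted in 0 and 9 UMIs of PTc in WT female and KO female and in 83 and 36 in WT mix and KO mix. For *Fos* the counts were 27 and 48, then 179 and 100. Both calls thus rest on the mixed pair.

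The 5 members with the lowest p in each type had unadjusted edgeR p-values from 0.0392 for *Zfp36* in PTc to 0.537 for *Dusp1* in PT1, all with an adjusted p of 1.0. Values are given in the order WT female and WT mix, then KO female, KO male and KO mix. In GL endo *Klf6* was at 239 and 363 CPM in the wild type and 120.4, 102 and 281 in the knockout libraries (log2 fold change −0.76, standard error 0.45). *Cebpd* was at 95.7 and 138 CPM in the wild type and 31.8, 23.6 and 126 in the knockout libraries (log2 fold change −0.84, standard error 0.59). *Btg2*, an antiproliferative factor, was at 692 and 1275 CPM in the wild type and 545, 346 and 1012 in the knockout libraries (log2 fold change −0.55, standard error 0.49). In each case WT mix and KO mix stood above the other libraries, and the genotypes overlapped. *Egr1* was at 363 and 1110.4 CPM in the wild type and 266, 146 and 819 in the knockout libraries (log2 fold change −0.77, standard error 0.68). *Fosl2* was at 51.8 and 63.9 CPM in the wild type and 36.4, 39.4 and 48.1 in the knockout libraries (log2 fold change −0.39, standard error 0.36). *Egr1* overlapped between genotypes, and for *Fosl2* both wild type values were the higher ones.

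In LOH *Rhob* was at 8.82 and 19.5 CPM in the wild type and 7.27, 5.66 and 11.3 in the knockout libraries (log2 fold change −0.69, standard error 0.54). *Cebpd* was at 12 and 11.4 CPM in the wild type and 5.45, 10.6 and 10.4 in the knockout libraries (log2 fold change −0.41, standard error 0.44). *Gadd45a*, which arrests the cell cycle, was at 34.0 and 21.1 CPM in the wild type and 33.9, 32.6 and 34.8 in the knockout libraries (log2 fold change 0.26, standard error 0.27). *Cebpd* was lower in all knockout libraries, and the other 2 genes overlapped. *Nfkbia* was at 45.3 and 55.2 CPM in the wild type and 41.8, 40.4 and 46.2 in the knockout libraries (log2 fold change −0.22, standard error 0.26). *Klf6* was at 68.6 and 107 CPM in the wild type and 61.8, 29.7 and 105 in the knockout libraries (log2 fold change −0.40, standard error 0.53). Both overlapped.

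In PTs *Btg2* was at 28.6 and 23.0 CPM in the wild type and 19.6, 11.1 and 20.1 in the knockout libraries (log2 fold change −0.57, standard error 0.31). *Btg1*, its relative, was at 24.0 and 29.9 CPM in the wild type and 21.1, 13.6 and 21.9 in the knockout libraries (log2 fold change −0.50, standard error 0.32). *Zfp36* was at 56.5 and 64.9 CPM in the wild type and 42.0, 19.6 and 53.2 in the knockout libraries (log2 fold change −0.64, standard error 0.45). For these 3 all knockout libraries lay below both wild type libraries, with KO male the lowest. *Gadd45g* was at 172 and 137 CPM in the wild type and 166, 31.4 and 65.3 in the knockout libraries (log2 fold change −0.83, standard error 0.59). *Cebpb* was at 6.27 and 38.0 CPM in the wild type and 5.81, 3.41 and 18.3 in the knockout libraries (log2 fold change −1.30, standard error 1.03). KO male was again the lowest, and the genotypes overlapped.

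In PTc *Zfp36* was at 61.4 and 52.3 CPM in the wild type and 43.4, 45.7 and 28.4 in the knockout libraries (log2 fold change −0.59, standard error 0.24). *Gadd45a* was at 8.77 and 14.3 CPM in the wild type and 5.35, 4.31 and 7.69 in the knockout libraries (log2 fold change −0.99, standard error 0.45). *Cebpb* was at 12.7 and 16.6 CPM in the wild type and 8.91, 3.45 and 11.5 in the knockout libraries (log2 fold change −0.82, standard error 0.48). All 3 were lower in each knockout library than in either wild type library. *Btg2* was at 4.38 and 20.8 CPM in the wild type and 2.97, 8.62 and 7.69 in the knockout libraries (log2 fold change −1.11, standard error 0.76). *Btg1* was at 32.2 and 30.3 CPM in the wild type and 31.2, 23.3 and 24.5 in the knockout libraries (log2 fold change −0.27, standard error 0.25). Both overlapped between genotypes.

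In PT1 *Cebpb* was at 6.92 and 51.4 CPM in the wild type and 10.2, 4.75 and 30.7 in the knockout libraries (log2 fold change −0.95, standard error 0.87). *Hsph1* was at 46.1 and 45.2 CPM in the wild type and 42.2, 78.4 and 56.9 in the knockout libraries (log2 fold change 0.38, standard error 0.40). *Gadd45a* was at 11.5 and 26.6 CPM in the wild type and 5.82, 0 and 23.9 in the knockout libraries (log2 fold change −0.84, standard error 0.95). All 3 overlapped, and WT mix and KO mix were the highest for *Cebpb* and *Gadd45a*. *Mcl1*, an inhibitor of apoptosis, was at 34.6 and 40.8 CPM in the wild type and 39.3, 42.7 and 52.3 in the knockout libraries (log2 fold change 0.26, standard error 0.35). *Dusp1* was at 23.1 and 24.8 CPM in the wild type and 11.6, 38.0 and 43.2 in the knockout libraries (log2 fold change 0.38, standard error 0.58). The genotypes overlapped for both.

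Other genes of the same pathways were read from 2 lists. Of 67 further immediate early and early response genes 63 were in the table, and in the run comparison 16 of the 42 tested were called higher and 1 lower in GL endo, where 13% of all genes were called higher. In LOH the counts were 15 and 2 of 38 (11.7%), in PTs 3 and 0 of 38 (0.474%), in PTc 8 and 1 of 31 (4.95%) and in PT1 1 and 0 of 18 (8.06%). *Gdf15*, a stress cytokine, was at 0, 2.27 and 11.8 CPM in run 2 and 141 and 149 in run 3 in GL endo (log2 fold change 5.10, standard error 0.54, edgeR adjusted p = 4.05e-05). *Id1*, an inhibitor of DNA-binding factors, was at 217, 189 and 236 CPM in run 2 and 834 and 948 in run 3 (log2 fold change 1.81, standard error 0.18, edgeR adjusted p = 2.16e-05). Both were higher in run 3 without overlap. *Gdf15* was at no more than 11.8 CPM in run 2 and passed the filter on low counts through run 3. The size of its difference is therefore uncertain. In LOH *Vegfa*, the endothelial growth factor, was at 40.9, 43.6 and 44.6 CPM in run 2 and 159 and 122 in run 3 (log2 fold change 1.80, standard error 0.17, edgeR adjusted p = 4.43e-09). *Nfkbiz*, a nuclear IkappaB protein, rose there by 2.52 on the log2 scale.

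Further chaperones went in mixed directions. Of 60 in the list, 7 were called higher and 7 lower of 50 tested in GL endo (13% and 13.9% of all genes), 4 and 10 of 55 in LOH (11.7% and 12.4%), 0 and 0 of 57 in PTs by edgeR (0.474% and 0.174%, with 8 at an unadjusted p under 0.05), 3 and 1 of 56 in PTc (4.95% and 3.18%) and 5 and 2 of 46 in PT1 (8.06% and 7.86%). *Bag1*, a cochaperone of HSP70, was at 238, 222 and 244 CPM in run 2 and 527 and 519.9 in run 3 in LOH (log2 fold change 1.30, standard error 0.11, edgeR adjusted p = 3.94e-10). *Ubb*, which encodes ubiquitin, was at 430.1, 485 and 394 CPM in run 2 and 188 and 189.8 in run 3 (log2 fold change −1.06, standard error 0.12, edgeR adjusted p = 1.04e-07). The 2 genes separated by run in opposite directions. Of 10 reference genes, 1 was called higher (*B2m*, 0.92) and 3 lower (*Rplp0*, *Gapdh* and *Ppia*, −0.86 to −0.57) of 9 tested in GL endo, and 0 of 10 passed in PTs by edgeR, with 0 at an unadjusted p under 0.05. Of the 13 mitochondrially encoded genes 5 were called higher and 1 lower in PTs, 10 and 1 in LOH and 3 and 2 in GL endo, where *mt-Atp8* fell by 3.37 on the log2 scale.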

How the data were processed

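Single-cell 3′ libraries of mouse kidney were prepared from 2 wild type and 3 knockout samples. The authors aligned reads to mm10 and counted UMIs with Cell Ranger (4.0.0), then merged and clustered cells with Seurat (3.2.2.9001), per the study's methods and the submitters' processing notes. The deposited table holds raw UMI counts per gene and cell, and the annotation deposited beside it gives cell type, run, the percent of mitochondrial UMIs and the doublet score that the authors computed with Scrublet. Doublets were not called again. The deposited cells had at least 1001 UMIs and at most 49.98% mitochondrial UMIs.

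Counts were summed per library and authors' cell type where a library held at least 20 cells of it. The sums were tested with the quasi-likelihood test of edgeR (4.0.16, R 4.3.3; TMM scaling, filterByExpr, robust dispersion), with Benjamini-Hochberg adjustment over all genes tested in a type and a threshold of 0.05. Knockout was compared with wild type without covariates, as in the study, and run 3 with run 2 beside a genotype term. Log2 fold changes are TMM-scaled and, for run, adjusted for genotype, so they differ from ratios of the printed CPM. Exact permutation over 2 and 3 libraries cannot give a p under 0.1. Alternatives were DESeq2 (1.42.0), limma-voom (limma 3.58.1), other filters on genes and cells, run or sex label as a block, and each library left out. GC offsets in 20 bins and the split at 25% mitochondrial UMIs were added after seeing the data. The scripts were tested on simulated data. The simulated genotype comparison held no run difference, so it does not bear on the power of that comparison in these data.

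The knockout and wild type libraries share a sex label and a run in 2 pairs (the female libraries and the mixed libraries). Deviations from the genotype means correlated in both pairs, from 0.432 to 0.808 for the female and 0.538 to 0.676 for the mixed libraries across genes of the 5 main types.

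The members and lists were chosen with earlier results of these data known. All 41 members could be named. Values by library were given for the 3 members with the highest mean level in each main type, the 5 with the lowest p in each comparison, called members up to 10 per comparison, and up to 4 genes of other lists.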

Additional observations from a re-analysis of the deposited data

Results flagged for a closer look

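The run difference of 5 members differed between GL endo and PTs by a test of the interaction term. The differences of log2 fold changes were −0.91 for *Jun*, −1.50 for *Fosb*, −0.97 for *Fos*, −0.89 for *Egr1* and −5.50 for *Myc*, with edgeR adjusted p-values from 0.000505 to 0.0407. For *Jun*, *Fosb*, *Fos* and *Egr1* the increase in run 3 was smaller in GL endo. *Myc* was too low in GL endo to be tested there on its own and entered this fit through its counts in PTs, so nothing is read from its value. It was counted in 3, 2 and 3 UMIs of GL endo in WT female, KO female and KO male and in 1 and 0 UMIs in WT mix and KO mix. In PTs the same libraries held 7, 12 and 2 UMIs and then 27 and 16. WT female and KO female also had lower straight-segment markers in PTs than the other libraries, and the part of this in the 5 differences was not tested.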

How the results depend on the processing

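All values here are counts of called members or log2 fold changes unless another unit is named. Most counts here have no share over all genes beside them, and nothing is read about the members from their changes. The number of all genes called changed as well: in PTs it was 67 by edgeR and 434 by DESeq2, of 10342 tested. The cause of each change was not tested. In the run comparison 9 members were called in PTs, and the count became 0 at a threshold of 0.01, 15 with DESeq2, 18 without a filter on low counts, 15 in cells with at most 25% mitochondrial UMIs, 18 without a genotype term and 0 with GC offsets, under which the median log2 fold change in PTs was 1.32, against 1.40. In PTc the count of 5 became 3 at a threshold of 0.01, 11 with limma-voom, 17 without the filter and 11 without a genotype term. In PT1 the count of 6 became 3 with DESeq2, 13 without the filter, 1 with at least 20 counts in every library and 2 in cells with at least 2000 UMIs. The median log2 fold change of members became 0.77 in PTs, 0.26 in PTc, 0.15 in PT1, 1.18 in LOH and 1.36 in GL endo with at least 20 counts, 1.72 in PTs and 1.26 in PTc at no more than 25% mitochondrial UMIs, 0.10 in PT1 and 1.25 in LOH at 2000 UMIs or more, 1.40 in PTc without the filter and 1.20 in LOH with GC offsets. Leaving out each library in turn gave run counts of 0 to 26 in PTs, 0 to 23 in PTc, 0 to 14 in PT1, 18 to 31 in LOH and 18 to 34 in GL endo, and medians of 1.07 to 1.39, 0.70 to 1.28, 0.18 to 0.43, 1.28 to 1.44 and 0.97 to 1.19.

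Cells with at most 25% mitochondrial UMIs had early response sums of 1890.2 CPM in PTs, 1484 in PTc and 3891 in LOH, against 1129.6, 828 and 2615 CPM in all cells, and chaperone sums of 5524 CPM in PTc and 3711 in LOH, against 4625 and 3277. In the same cells 3 members, in place of 0, differed in the run effect between LOH and PTs. Over all genes 76 of 9879 did so, in place of 52 of 10835. The mean share of LOH cells with a UMI was 37.5% for *Fos*, 32.2% for *Jun* and 15.5% for *Hspa1b* over all UMIs, and 32.9%, 23.9% and 9.20% after thinning to 2000 UMIs, against 20.6%, 14.2% and 5.43% at 1000.

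For knockout against wild type, medians ranged from −1.09 to 0.53 in PTs, −0.85 to 0.53 in PTc, −0.02 to 0.22 in PT1, −0.79 to 0.51 in LOH and −0.97 to 0.31 in GL endo with 1 library left out, and 0 members were called in each case. Each highest median was that without WT mix. With the sex label as a replicate block 2 members were called in PTc. With run as the replicate block 0 were called in the 5 main types. The block thus changed calls of members in PTc and only when defined by the sex label, among these 5 types. Directions turned for *Cebpb* in PTs (0.73 without WT mix) and in PT1 (1.27 without WT mix), *Btg2* in PTc (0.51 without WT mix and 0.32 at no more than 25% mitochondrial UMIs), *Klf6* in LOH (0.010 without WT mix), *Egr1* in GL endo (0.10 without WT mix), *Dusp1* in PT1 (−0.026 without KO mix) and *Hsph1* in PT1 (−0.36 at 2000 UMIs or more). Of the other values of single members, 466 of the run comparison kept their direction and side of the threshold and 77 lost the call, and 322 of the genotype comparison kept both. Each comparison in these 5 types had 2 libraries in 1 arm and 3 in the other. In PTf KO male held 9 cells and was left out, so that 2 libraries stood against 2. Depth left 17 members in PT1 and 10 in PTc below the filter on low counts.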
